A study of Mus musculus with 36 samples.

Results

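Genes for the proteins of the mitochondrial ribosome were followed in a mouse embryonic stem cell line, E14 (ESC), and in the neural precursors (NPC) made from it with retinoic acid. The members were all symbols of the count table that start with Mrpl or Mrps and a number, pseudogene copies left out, which gave 78 of 51734 symbols. The filter on low counts kept 77 of them among 20511 genes tested. The member it removed was Mrpl53, which stood between 0 and 0.127 CPM (counts scaled to the total of a library) in the 18 libraries. In the GENCODE vM21 annotation (GRCm38), 88.0% of its exonic bases lie under exons of Gm42688 on the same strand.

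Messenger RNA was sequenced in 6 groups of 3 libraries: wild type (WT), MLL3/4 dCD and MLL2 dTAG, each as ESC and as NPC. MLL2, MLL3 and MLL4 place methyl groups on lysine 4 of histone H3. In the dCD line MLL3 and MLL4 have lost this enzymatic activity. In the other line, titled WT-MLL2dTAG and called MLL2dTAG here, MLL2 carries a tag that lets the compound dTAG-13 send it for destruction. Every library used here, WT and ESC included, carries dTAG-13 as its treatment, and none of these groups lacks it. For NPC the compound was present at 2 µM from day 1 of differentiation to harvest on day 4, and the length of exposure of ESC is not given in the sources used here. Each genotype is a separate line, so the edit and other differences between lines cannot be told apart. The labels do not say whether replicates were separate cultures, and p-values then measure only the spread between these libraries, which may be technical.

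Mitochondria keep a small genome whose protein genes encode core parts of the respiratory chain and the ATP synthase. A dedicated ribosome inside the organelle translates them. Its RNAs come from the mitochondrial genome, but all of its proteins are encoded in the nucleus, made in the cytosol and imported. The small subunit (Mrps genes) reads the messenger RNA and the large subunit (Mrpl genes) joins the amino acids. Many members descend from bacterial ribosomal proteins and others were added in the mitochondrial lineage. Symbols do not always follow the subunit: the proteins of Mrps18a and Mrps30 sit in the large subunit, and that of Mrps36 belongs to the alpha-ketoglutarate dehydrogenase complex. By these roles 26 members belonged to the small subunit and 51 to the large one, of which 50 were tested.

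Total counts were 19430860 to 46041277 per library, and replicates differed little (biological coefficient of variation 4.01%), so that small changes passed the test. All 37 symbols of the mitochondrial genome stood at 0 counts in all 18 libraries, so what the ribosome translates was not measured. The mRNA of the edited genes does not check the labels, because a degron acts on protein and dCD is an activity mutant. Over all libraries Kmt2b (MLL2) was at 167 to 235 CPM, Kmt2c (MLL3) at 161 to 335 CPM and Kmt2d (MLL4) at 151 to 269 CPM. The 6 ESC markers summed to 2827 to 3180 CPM in WT ESC and to 23.7 to 24.3 CPM in WT NPC. The 6 NPC markers summed to 64.8 to 72.9 CPM in WT ESC and to 228 to 233 CPM in WT NPC, with Neurog2 at 0 in WT ESC. WT NPC also held endoderm marker RNA. The 6 endoderm markers summed to 14.3 to 15.6 CPM in WT ESC and to 205 to 213 CPM in WT NPC, and all 6 were called higher. Most of the WT NPC sum lay in Gata4 and Gata6, at means of 62.6 and 127 CPM. Sox1, an early neural marker, did not separate the stages in WT, at 2.56 to 3.47 CPM in ESC and 2.82 to 3.26 CPM in NPC.

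Replicate 2 of WT ESC stood apart from the other two. In it the members summed to 3676 CPM, against 4193 and 4158 CPM in replicates 1 and 3. It held the lowest of the 3 values for 67 of the 77 tested members (87.0%), against 35.1% of all genes tested. Its mesenchyme marker Col1a1 was at 228 CPM, against 172 and 183 CPM, and its ESC marker Pou5f1 at 486 CPM, against 612 and 568 CPM. Other markers of these lists differed less or went the other way. The mesenchyme marker Acta2 was at 15.1 CPM, against 15.7 and 15.6 CPM. The ESC markers Esrrb and Zfp42 were at 553 and 282 CPM, against 554 and 299 CPM in replicate 1 and 565 and 283 CPM in replicate 3. The counts of members called higher and lower in each comparison that uses WT ESC are therefore given with and without it. This alternative was chosen after the data were seen. Most finer counts, such as those by subunit, by size of change or over both stages, are given only with it.

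The members were well expressed. Their median over all libraries was 43.3 CPM, against 11.04 CPM over all genes tested, and they lay at a median percentile of 70.6. Their transcripts were short, with a median of 918 bases against 1676 bases. Per length the lower and upper quartiles of the members were 24.6 and 64.2 CPM per kilobase. The order of members per length depends on the transcript model taken. With the model of median length the highest were Mrps5 (225 CPM per kilobase), Mrpl45 (222) and Mrpl17 (151), whose models of 424, 493 and 459 bases are short. With the longest model these members ranked 52, 16 and 70 of 78. Mrpl42, a large-subunit protein without a bacterial counterpart, ranked 5 with the median model and 1 with the longest. Mrps34 was the lowest tested member with either model, at 2.04 CPM per kilobase. Exons of Nme3 on the same strand cover 37.0% of its exonic bases and those of Mapk8ip3 on the opposite strand 63.4%, and the sources used here do not say how shared reads were counted. Mrps26 (6.01) and Mrpl57 (5.83) were the next lowest named members.

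The first question was how the genes behaved when WT ESC became NPC. They mostly fell. The 50 large-subunit members summed to 2918, 2535 and 2872 CPM in WT ESC and to 1972, 2017 and 2017 CPM in WT NPC. The 26 small-subunit members summed to 1260, 1130 and 1275 CPM in WT ESC and to 866, 882 and 871 CPM in WT NPC. The stages did not overlap for either subunit, nor did they in dCD or in MLL2dTAG. CPM is a share of all messenger RNA, and in bulk cells less RNA per cell and fewer cells of a type cannot be told apart.

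**Figure D1:**
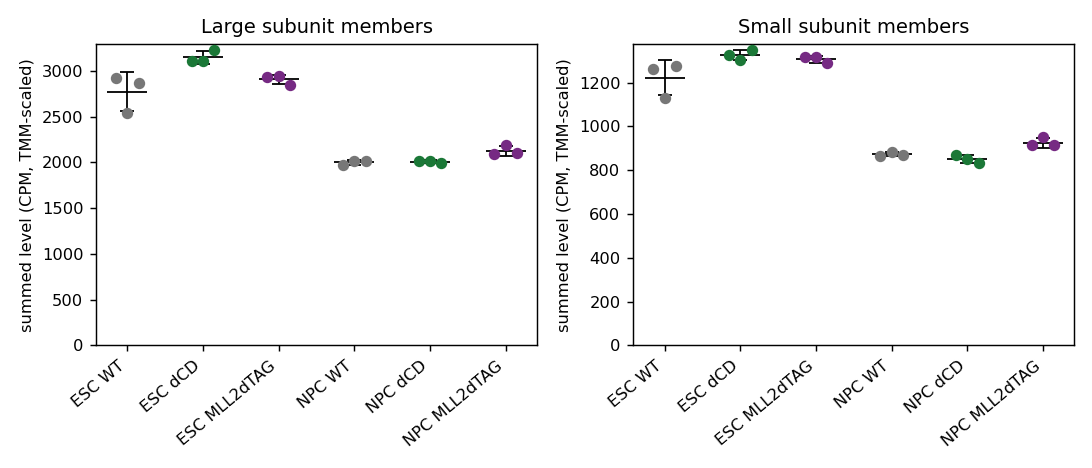
Summed level of the tested large-subunit (left) and small-subunit (right) members in CPM scaled by TMM, for each of the 18 libraries. Points are libraries, the horizontal bar is the mean of 3 and the whiskers are 1 SD; all NPC libraries lie below all ESC libraries, and replicate 2 of WT ESC (2535 and 1130 CPM) is the lowest ESC library.

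Of the 77 tested members, 59 were called at an adjusted p under 0.05 in WT NPC against WT ESC (edgeR quasi-likelihood test, Benjamini-Hochberg over all genes), against 79.5% of all genes tested. By direction 52 were lower and 7 higher, against 40.4% and 39.1% of all genes. The median log2 fold change was -0.32 over members and -0.037 over all genes tested. Without replicate 2 of WT ESC the split was 56 lower and 3 higher, with a median of -0.38. With offsets for gene length and GC content it was 42 lower and 15 higher, with a median of -0.21. For 51 members the call came without overlap of libraries, against 76.5% of all genes. Few changes were large: 24 members were called and changed at least 1.5-fold, against 58.5% of all genes.

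Members of both subunits were mostly lower: 17 of 26 small-subunit members fell and 3 rose, with a median of -0.35, and 35 of 50 large-subunit members fell and 4 rose, with a median of -0.33. Of the members with a bacterial homolog 34 of 46 fell and 5 rose (median -0.35), and of the mitochondria-specific ones 18 of 30 fell and 2 rose (median -0.30). The libraries of the 2 stages were often fully apart. All NPC libraries lay below all ESC libraries of their genotype for 47 members in WT, 63 in dCD and 58 in MLL2dTAG, against 40.1%, 39.7% and 39.6% of all genes. In all 3 genotypes at once this held for 44 members, against 27.8% of all genes. Leaving out replicate 2 of WT ESC, which loosens the condition for every gene, gave 60 members in WT, against 42.3% of all genes. The reverse order held for 6 members in WT, 3 in dCD and 10 in MLL2dTAG, against 39.6%, 39.5% and 40.9% of all genes. In all 3 genotypes at once the reverse held for Mrps6 alone, against 28.9% of all genes. Exons of Gm49711 and Slc5a3 on the same strand cover 19.9% of the exonic bases of Mrps6.

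**Figure D2:**
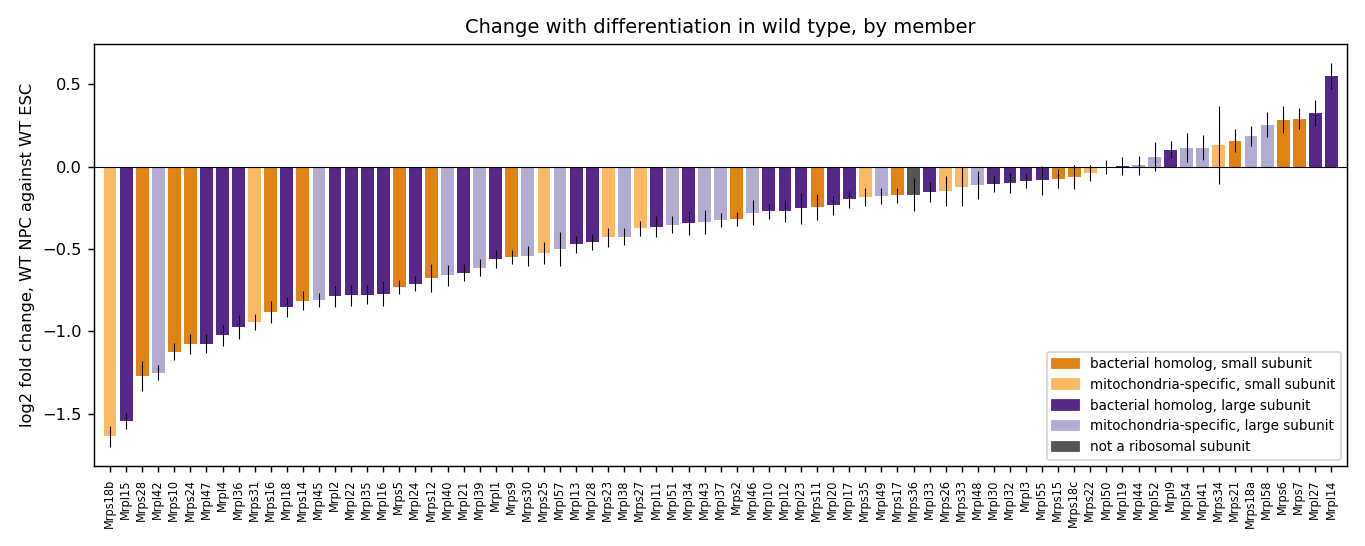
log2 fold change of each of the 77 tested members in WT NPC against WT ESC, ordered by size, with bars coloured by subunit and ancestry and whiskers of 1 SE from the edgeR fit. Most bars point down, from Mrps18b at -1.64 to Mrpl14 at 0.55.

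Mrps18b, a small-subunit protein found only in mitochondrial ribosomes, had the largest fall among members whose libraries did not overlap. It was at 32.00, 33.7 and 33.4 CPM in WT ESC and at 11.4, 10.46 and 10.1 CPM in WT NPC (log2 fold change -1.64, SE 0.065, adjusted p 1.27e-22). Mrpl15, a large-subunit protein of bacterial descent, was at 201, 169.7 and 196 CPM in WT ESC and at 64.2, 65.3 and 64.4 CPM in WT NPC (log2 fold change -1.55, SE 0.050, adjusted p 1.93e-25). For both genes every ESC library lay far above every NPC library. Mrps28, a small-subunit protein, went from 27.6, 22.96 and 29.98 CPM in WT ESC to 10.8, 11.6 and 10.9 CPM in WT NPC (log2 fold change -1.27, SE 0.088, adjusted p 2.12e-15). Mrpl42 went from 145, 134 and 131 CPM in WT ESC to 60.7, 53.9 and 57.9 CPM in WT NPC (log2 fold change -1.25, SE 0.045, adjusted p 6.19e-24). All NPC libraries of these 4 genes lay below all ESC libraries in WT.

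The 4 members that rose most were Mrpl14, Mrpl27, Mrps7 and Mrps6. Mrpl14, a large-subunit protein at the face between the subunits, was at 19.9, 16.3 and 20.1 CPM in WT ESC and at 26.1, 28.3 and 27.3 CPM in WT NPC (log2 fold change 0.55, SE 0.079, adjusted p 1.28e-07). Mrpl27, which lies near the site where amino acids are joined, was at 20.1, 16.95 and 21.96 CPM in WT ESC and 24.6, 23.6 and 25.6 CPM in WT NPC (log2 fold change 0.33, SE 0.079, adjusted p 3.41e-04). Their NPC libraries all lay above their ESC libraries, by a narrow margin for Mrpl27. Mrps7, which binds the RNA of the small-subunit head, was at 38.4, 33.6 and 42.1 CPM in WT ESC and 44.8, 47.02 and 47.5 CPM in WT NPC (log2 fold change 0.29, SE 0.063, adjusted p 1.00e-04). Mrps6, a small-subunit protein of bacterial descent, was at 20.3, 15.7 and 20.3 CPM in WT ESC and 21.6, 24.8 and 21.6 CPM in WT NPC (log2 fold change 0.28, SE 0.083, adjusted p 0.00242). The call for Mrps6 was lost without replicate 2 of WT ESC (log2 fold change 0.17, SE 0.082, adjusted p 0.0623).

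The members fixed for their roles varied. Mrps12, at the decoding centre of the small subunit, fell by 0.68 (SE 0.086) on the log2 scale, with 25.1 to 30.8 CPM in WT ESC and 16.8 to 18.6 CPM in WT NPC. Mrpl45, which lies near the tunnel exit and the inner membrane, fell by 0.81 (SE 0.044), with 126 to 148 CPM in WT ESC and 77.3 to 80.6 CPM in WT NPC. Mrpl12, in the stalk of the large subunit and also known to bind the mitochondrial RNA polymerase, fell by 0.27 (SE 0.065), a call lost with offsets for length and GC content (log2 fold change -0.11, adjusted p 0.0782). Mrpl44, related to RNase III enzymes, did not pass, at 0.0082 (SE 0.058), and passed with offsets for length and GC content (0.14, adjusted p 0.025). Mrpl58, a hydrolase that frees stalled chains, rose by 0.25 (SE 0.075), a call lost without replicate 2 of WT ESC (0.13, SE 0.070, adjusted p 0.0868) and with offsets for length and GC content (0.16, adjusted p 0.0504).

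Mrps18a, Mrps18b and Mrps18c are related to the same bacterial protein, and the 3 genes did not move together. Mrps18b had the large fall given above. Mrps18c, the small-subunit counterpart of the bacterial protein, did not pass, at -0.064 (SE 0.071) with 16.6 to 20.4 CPM in WT ESC and 16.8 to 17.9 CPM in WT NPC. Exons of Gm43511 on the same strand cover 23.2% of the exonic bases of Mrps18c. Mrps18a, in the large subunit, rose by 0.18 (SE 0.060), a call lost without replicate 2 of WT ESC (0.094, SE 0.058, adjusted p 0.139) and with upper-quartile scaling (0.10, adjusted p 0.105). Mrps30, in the large subunit, fell by 0.54 (SE 0.061), with 60.8 to 76.4 CPM in WT ESC and 46.1 to 48.2 CPM in WT NPC. Mrps36, the dehydrogenase subunit, did not pass in WT, at -0.17 (SE 0.099), and passed without replicate 2 of WT ESC (-0.24, adjusted p 0.0418), without replicate 3 of WT NPC (-0.29, adjusted p 0.0132) or with upper-quartile scaling (-0.25, adjusted p 0.0187). The table also lists pseudogene copies of Mrps36 (0 to 12 counts), Mrpl23 (5 to 26) and Mrpl48 (40 to 139), so how reads were divided between these genes and their copies is uncertain.

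The next question was which members differed when MLL3 and MLL4 lack catalytic activity. In ESC, 48 of 77 members were called in dCD against WT, against 48.3% of all genes tested. They were mostly higher: 42 rose and 6 fell, against 25.7% and 22.6% of all genes. The changes were small, with a median log2 fold change of 0.18 over members and 0.023 over all genes, and 3 members were called and changed at least 1.5-fold, against 18% of all genes. The call came without overlap of libraries for 42 members, against 44.6% of all genes. Without replicate 2 of WT ESC, 31 rose and 9 fell, and the median was 0.11. The 6 mesenchyme markers summed to 429 to 532 CPM in WT ESC and 694 to 782 CPM in dCD ESC, none at 0, and their part in the result was not tested.

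Mrps7, Mrpl20, Mrpl12 and Mrpl55 rose most in dCD ESC among members without overlap. Mrps7 was at 38.4, 33.6 and 42.1 CPM in WT ESC and 60.02, 59.02 and 67.2 CPM in dCD ESC (log2 fold change 0.71, SE 0.063, adjusted p 1.63e-11). Mrpl20, a large-subunit protein of bacterial descent, was at 46.5, 37.8 and 44.1 CPM in WT ESC and 67.3, 68.3 and 71.8 CPM in dCD ESC (log2 fold change 0.70, SE 0.056, adjusted p 9.22e-13). Mrpl12 was at 52.5, 41.1 and 52.1 CPM in WT ESC and 75.5, 72.4 and 74.98 CPM in dCD ESC (log2 fold change 0.62, SE 0.063, adjusted p 3.22e-10). In each case the lowest dCD library was well above the highest WT library. Mrpl55, a large-subunit protein of bacterial descent, rose by 0.55 (SE 0.087), with 14.6 to 17.7 CPM in WT ESC and 22.5 to 26.1 CPM in dCD ESC.

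The members that fell most in dCD ESC were Mrpl23, Mrps10, Mrpl33 and Mrpl24. Mrpl23, a protein at the tunnel exit of the large subunit, was at 16.2, 13.97 and 16.04 CPM in WT ESC and 11.3, 10.3 and 12.9 CPM in dCD ESC (log2 fold change -0.41, SE 0.10, adjusted p 8.06e-04). Mrps10, in the head of the small subunit, was called lower, with 77.4 to 87.6 CPM in WT ESC and 66.1 to 71.1 CPM in dCD ESC (-0.28, SE 0.051). Mrpl33 and Mrpl24, of bacterial descent in the large subunit, changed by -0.23 (SE 0.063) and -0.17 (SE 0.048). None of these 4 falls reached 1.5-fold.

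**Figure D3:**
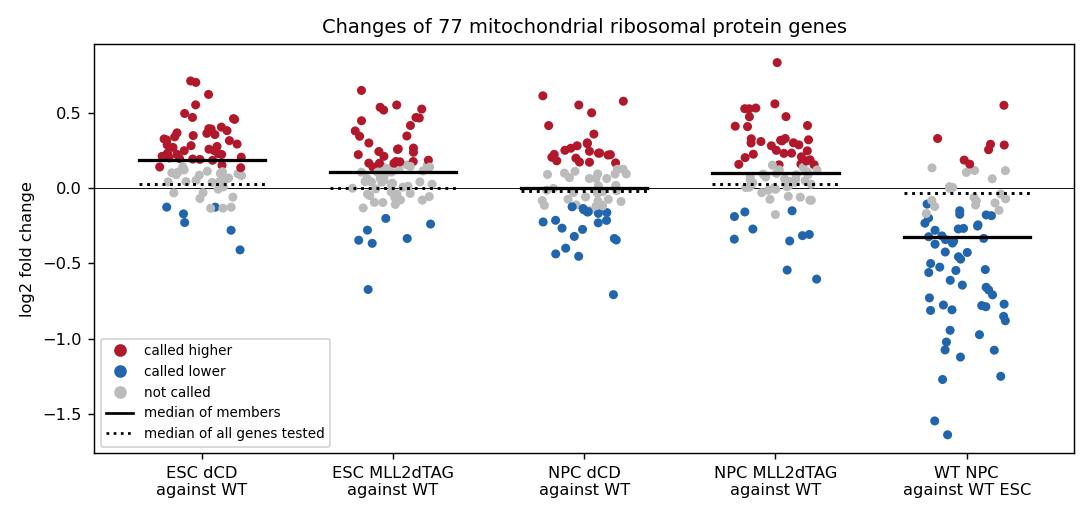
log2 fold changes of the 77 tested members in 5 comparisons, 1 point per member, coloured by call (adjusted p under 0.05, edgeR). Solid bars are the medians of members and dotted bars the medians of all genes tested; the member median is -0.32 for differentiation and 0.18 for dCD in ESC. The 2 comparisons at each stage share their WT libraries.

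In NPC the dCD line showed no shared direction. Of 77 members 45 were called, against 53.5% of all genes tested, 23 higher and 22 lower (26.7% and 26.8% of all genes). The median log2 fold change was -0.0036 over members and -0.017 over all genes. For 40 members the libraries did not overlap, against 51.5% of all genes. Leaving out each replicate in turn gave 37 to 39 called members. The mesenchyme markers summed to 443 to 457 CPM in WT NPC and 1003 to 1085 CPM in dCD NPC, none at 0, and the NPC markers to 228 to 233 and 387 to 427 CPM. Most of the mesenchyme rise lay in Acta2 (means of 40.5 and 541 CPM) and most of the NPC rise in Nes (91.2 and 231 CPM). Of 6 mesenchyme markers 5 were called higher and 0 lower, and of 6 NPC markers 4 and 0. Pdgfra was at 62.8 and 64.6 CPM, Neurog2 at 4.31 and 3.18 CPM and Dcx at 81.4 and 77.3 CPM. The part of these markers in the result was not tested.

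Mrpl20 rose here too, from 36.4, 34.9 and 37.3 CPM in WT NPC to 56.8, 53.6 and 55.5 CPM in dCD NPC (log2 fold change 0.61, SE 0.054, adjusted p 6.54e-12). Mrpl41, a mitochondria-specific protein of the large subunit, went from 21.6, 21.7 and 21.1 CPM in WT NPC to 31.2, 34.2 and 30.5 CPM in dCD NPC (log2 fold change 0.58, SE 0.072, adjusted p 1.54e-08). Mrps6 went from 21.6, 24.8 and 21.6 CPM in WT NPC to 34.1, 35.2 and 30.4 CPM in dCD NPC (log2 fold change 0.55, SE 0.076, adjusted p 1.20e-07). The dCD libraries of these 3 genes all lay above the WT libraries. Mrpl16, of bacterial descent in the large subunit, rose by 0.50 (SE 0.074), with 17.4 to 19.9 CPM in WT NPC and 24.2 to 27.7 CPM in dCD NPC.

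Mrpl23 fell most in dCD NPC, from 13.8, 12.8 and 12.04 CPM in WT NPC to 8.19, 8.86 and 6.57 CPM in dCD NPC (log2 fold change -0.71, SE 0.099, adjusted p 1.58e-07). Mrps5, in the body of the small subunit, went from 75.3, 75.9 and 77.7 CPM in WT NPC to 57.8, 51.8 and 57.7 CPM in dCD NPC (log2 fold change -0.45, SE 0.045, adjusted p 7.80e-11). Mrps30 went from 47.4, 46.1 and 48.2 CPM in WT NPC to 32.3, 35.1 and 37.2 CPM in dCD NPC (log2 fold change -0.44, SE 0.062, adjusted p 2.22e-07). All dCD libraries of these 3 genes lay below the WT libraries. Mrps9, in the head of the small subunit, fell by 0.40 (SE 0.044), with 68.3 to 71.7 CPM in WT NPC and 50.8 to 55.6 CPM in dCD NPC. Mrps36 was called higher, at 0.22 (adjusted p 0.049), a call lost when any of the libraries NPC WT 1, NPC WT 2 and NPC dCD 1 to 3 was left out (0.15 to 0.24). Without NPC WT replicate 3 it was 0.34 (adjusted p 0.00485). The call was also lost with upper-quartile scaling (adjusted p 0.0542) and with replicate number as a block (adjusted p 0.0583).

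The 2 stages differed in how dCD compared with WT. The interaction, which is the dCD change in NPC minus that in ESC, was called for 38 members, against 42.9% of all genes. It was negative for 35 and positive for 3, against 22.9% and 20% of all genes, with a median of -0.18. Without replicate 2 of WT ESC it was negative for 29 and positive for 12, with a median of -0.13. In dCD against WT 16 members rose at both stages, against 11.6% of all genes, and 3 fell at both (Mrpl23, Mrpl24 and Mrps9), against 10.9%. A further 10 were called higher in ESC and lower in NPC, against 5.14% of all genes, and 0 showed the reverse order, against 4.51%. Without replicate 2 of WT ESC, 6 of these 10 were called higher in ESC.

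Mrpl35 and Mrpl19, both of bacterial descent in the large subunit, had the most negative interactions. Mrpl35 was at 54.7, 49.3 and 51.4 CPM in WT ESC and 69.4, 71.04 and 71.8 CPM in dCD ESC, and at 28.4, 29.4 and 32.5 CPM in WT NPC and 26.2, 28.8 and 26.7 CPM in dCD NPC. The dCD libraries were all higher in ESC and overlapped those of WT in NPC, where the call was lower (-0.14, SE 0.058). Its interaction was -0.60, SE 0.079, adjusted p 7.78e-08. Mrpl19 was at 36.3 to 43.2 CPM in WT ESC and 55.7 to 56.97 CPM in dCD ESC, and at 39.9 to 41.95 and 36.5 to 40.4 CPM in NPC, with an interaction of -0.56, SE 0.078, adjusted p 2.73e-07. Exons of Gcfc2 on the opposite strand cover 36.0% of its exonic bases. Mrpl44 (-0.53, SE 0.081), Mrpl58 (-0.54, SE 0.11) and Mrpl12 (-0.40, SE 0.089) also had negative interactions. The positive ones were weak: Mrpl41 was at 0.29 (SE 0.11), a call lost without any 1 of 6 libraries and with offsets for length and GC content (0.24, adjusted p 0.0553). Mrpl57 was at 0.35 (SE 0.15), a call lost without any 1 of 7 libraries, at 0.20 without replicate 3 of WT ESC. It was also lost with each other scaling run, with halved counts, with only the groups compared and with DESeq2 (adjusted p 0.05 to 0.0949).

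The line with degradable MLL2 was compared with WT in the same way, using the same WT libraries as dCD. In ESC 35 of 77 members were called, against 56.9% of all genes tested: 28 rose and 7 fell, against 28.7% and 28.2% of all genes. The median log2 fold change was 0.10 over members and -0.0011 over all genes. For 28 called members the libraries did not overlap, against 53.3% of all genes. Without replicate 2 of WT ESC 20 rose and 14 fell, with a median of 0.018, and with upper-quartile scaling 20 rose and 12 fell. The mesenchyme markers summed to 757 to 810 CPM in MLL2dTAG ESC, against 429 to 532 CPM in WT ESC, none at 0. Their part in the result was not tested.

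In NPC 43 members were called in MLL2dTAG, against 61.7% of all genes tested: 33 rose and 10 fell, against 33.3% and 28.4% of all genes. The median log2 fold change was 0.096 over members and 0.028 over all genes. For 41 members the libraries did not overlap, against 60% of all genes. The split followed the scaling, with 23 higher and 15 lower by library totals alone and 22 and 16 with upper-quartile scaling. MLL2dTAG NPC held more ESC marker RNA than WT NPC (160 to 162 against 23.7 to 24.3 CPM over 6 genes). It also held more endoderm marker RNA (510 to 524 against 205 to 213 CPM over 6 genes), no marker of either list being at 0. All 6 endoderm markers were called higher. Most of both endoderm sums lay in Gata4 and Gata6, at means of 253 and 219 CPM in MLL2dTAG NPC and 62.6 and 127 CPM in WT NPC. Of 6 NPC markers 3 were called higher and 3 lower, with sums of 272 to 277 CPM against 228 to 233 CPM in WT NPC. Of 6 mesenchyme markers 3 were called higher and 3 lower, with sums of 540 to 547 CPM against 443 to 457 CPM. The part of any of these 4 lists in the result was not tested. Of the 77 tested members, 19 were called higher in MLL2dTAG at both stages, against 16.7% of all genes tested. Another 3 were called lower at both (Mrpl4, Mrpl24 and Mrps9), against 14%. A further 1, Mrps28, was lower in ESC and higher in NPC, against 5.87%, and 0 showed the reverse, against 4.72%.

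Mrps7 rose in MLL2dTAG at both stages. In ESC it was at 61.2, 60.6 and 56.9 CPM, against 38.4, 33.6 and 42.1 CPM in WT (log2 fold change 0.65, SE 0.063, adjusted p 4.66e-11). In NPC it was at 60.9, 66.1 and 58.5 CPM, against 44.8, 47.02 and 47.5 CPM in WT (log2 fold change 0.41, SE 0.059, adjusted p 1.42e-07). The MLL2dTAG libraries lay above all WT libraries at each stage. Mrpl19 (0.55, SE 0.055), Mrpl55 (0.52, SE 0.085) and the mitochondria-specific large-subunit gene Mrpl46 (0.53, SE 0.073) were the other members with the largest rises in ESC. Mrps10 (-0.37, SE 0.050), Mrpl48 (-0.35, SE 0.087) and Mrpl24 (-0.34, SE 0.048) fell in ESC.

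Mrps18b was the member that rose most in MLL2dTAG NPC. It was at 11.4, 10.46 and 10.1 CPM in WT, 14.2, 14.7 and 13.6 CPM in dCD and 18.2, 18.7 and 19.9 CPM in MLL2dTAG (log2 fold change of MLL2dTAG against WT 0.83, SE 0.066, adjusted p 2.23e-13). The 3 groups did not overlap. In ESC it was at 32.00, 33.7 and 33.4 CPM in WT, 41.96, 42.95 and 42.7 CPM in dCD and 41.8, 43.8 and 40.4 CPM in MLL2dTAG, and the 2 edited lines overlapped each other above WT. The interaction for MLL2dTAG was 0.49, SE 0.087, adjusted p 1.38e-05, and MLL2dTAG NPC was above dCD NPC by 0.42 (SE 0.064). Exons of Gm16279 on the opposite strand cover 30.5% of its exonic bases. Mrps26, another mitochondria-specific small-subunit gene (0.56, SE 0.083), Mrpl41 (0.53, SE 0.071) and Mrpl16 (0.53, SE 0.073) also rose in MLL2dTAG NPC, and Mrpl23 (-0.54, SE 0.096), Mrpl24 (-0.35, SE 0.049) and Mrps5 (-0.34, SE 0.044) fell.

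Mrpl4, a large-subunit protein of bacterial descent that reaches into the exit tunnel, separated the 2 edited lines. In ESC it was at 66.6, 54.3 and 63.6 CPM in WT, 63.01, 61.8 and 64.1 CPM in dCD and 38.9, 38.4 and 38.02 CPM in MLL2dTAG. In NPC it was at 30.01, 29.7 and 30.8 CPM in WT, 36.6, 31.2 and 33.9 CPM in dCD and 17.8, 20.8 and 20.8 CPM in MLL2dTAG. All MLL2dTAG libraries were below all others of their stage. Against WT the log2 fold change in MLL2dTAG was -0.67, SE 0.063, adjusted p 2.24e-11 in ESC and -0.60, SE 0.068, adjusted p 1.24e-09 in NPC. In dCD it did not pass in ESC (0.039, SE 0.062, adjusted p 0.637) and was slightly higher in NPC (0.17, SE 0.066, adjusted p 0.0317). Directly against dCD, MLL2dTAG changed by -0.71 (SE 0.063) in ESC and -0.77 (SE 0.068) in NPC.

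**Figure D4:**
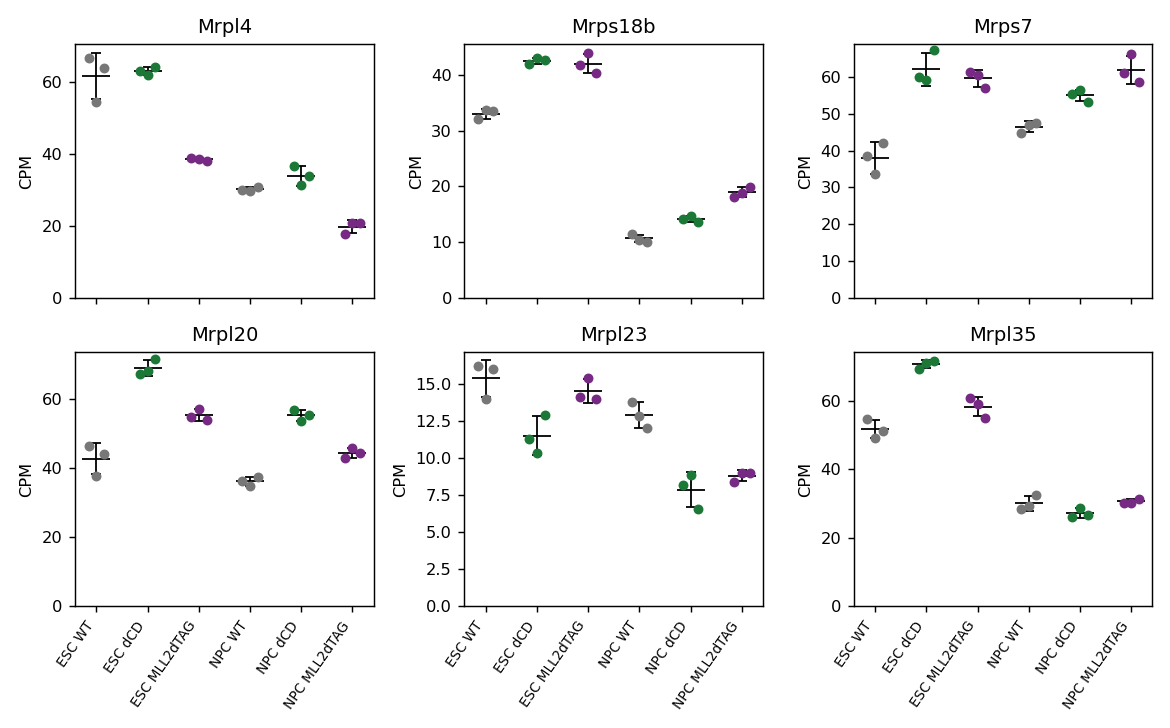
Level in CPM (scaled by TMM) of 6 members in the 6 groups; points are libraries, bars the mean of 3 and whiskers 1 SD. Mrpl4 is lowest in MLL2dTAG at each stage (38.0 to 38.9 CPM in ESC, 17.8 to 20.8 CPM in NPC), and all NPC libraries of Mrps18b lie below all its ESC libraries.

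The genes next to Mrpl4 were lower in MLL2dTAG too, an observation made after the values were seen and given without a test of its own. Mrpl4 lies at chr9:21002738-21008839 (GRCm38, forward strand). Of 51 members with at least 5 tested genes within 100 kb, Mrpl4 alone had all of them (7 of 7) called lower, in ESC MLL2dTAG, and no member had this in the other 3 comparisons with WT. The stretch was 11 consecutive tested genes, from Dnmt1 to Gm16754, at chr9:20907209-21233046 (326 kb). In MLL2dTAG against WT all 11 were called lower in ESC, with a median log2 fold change of -0.94, and 10 of 11 in NPC, with a median of -0.95. With replicate 2 of WT ESC left out, 10 of 11 were lower in ESC, with a median of -0.99.

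Dnmt1, the maintenance DNA methyltransferase, changed by -1.13 in ESC and -0.89 in NPC, Cdc37, a co-chaperone for kinases, by -0.94 in ESC and -0.95 in NPC, and Raver1, an RNA-binding protein, by -0.58 in ESC and -0.92 in NPC. The 20 tested genes flanking the stretch had medians of 0.076 in ESC and 0.19 in NPC. In dCD against WT the stretch held 5 genes lower and 2 higher at each stage, with medians of -0.22 in ESC and -0.054 in NPC. The stretch was defined by its calls in ESC MLL2dTAG, so those values only describe it.

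**Figure D5:**
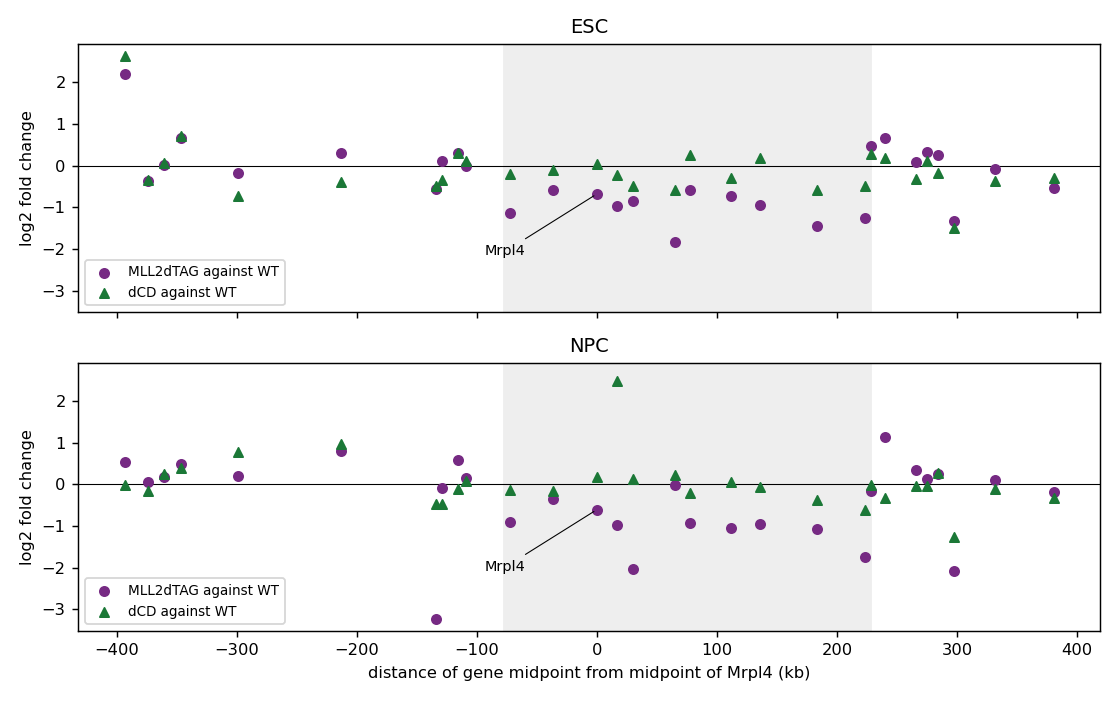
log2 fold change against WT of the tested genes around Mrpl4, by distance of gene midpoints in kb, in ESC (top) and NPC (bottom); circles are MLL2dTAG and triangles dCD. The shaded stretch of 11 genes has medians of -0.94 and -0.95 in MLL2dTAG, and -0.22 and -0.054 in dCD.

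The 2 edited lines were also compared with each other at each stage. In ESC 30 members differed, against 47.2% of all genes tested, 24 lower and 6 higher in MLL2dTAG (23.7% and 23.4% of all genes). With upper-quartile scaling the split was 33 and 3. In NPC 37 differed, against 55.9% of all genes, 5 lower and 32 higher in MLL2dTAG (24.3% and 31.6% of all genes). That split also followed the scaling, with 9 lower and 18 higher by library totals alone and 10 and 18 with upper-quartile scaling. Marker RNA differed there too. All 6 NPC markers were called lower in MLL2dTAG NPC than in dCD NPC, and all 6 ESC and all 6 endoderm markers higher. Of 6 mesenchyme markers 4 were lower and 1 higher. The part of these markers in the split was not tested. Besides Mrpl4, Mrpl48 (-0.44, SE 0.087), Mrpl20 (-0.32, SE 0.053) and the mitochondria-specific Mrpl39 (-0.32, SE 0.050) were lower in MLL2dTAG ESC than in dCD ESC. Mrpl33 (0.33, SE 0.061), Mrpl23 (0.33, SE 0.098), Mrps24 (0.30, SE 0.059) and Mrps12 (0.23, SE 0.082) were higher. Exons of Urgcp on the same strand cover 15.4% of the exonic bases of Mrps24. The call of Mrpl23 was lost without ESC dCD replicate 2 (adjusted p 0.0518), and that of Mrps12 without ESC dCD replicate 2 (adjusted p 0.124) or ESC MLL2dTAG replicate 3 (adjusted p 0.101). With offsets for length and GC content both calls were lost, Mrpl23 at 0.18 (adjusted p 0.115) and Mrps12 at 0.086 (adjusted p 0.365), and with upper-quartile scaling that of Mrps12 (0.18, adjusted p 0.065). In NPC Mrps30 (0.45, SE 0.062), Mrps12 (0.38, SE 0.088) and the mitochondria-specific Mrpl40 (0.37, SE 0.064) were higher in MLL2dTAG than in dCD. Mrps6 (-0.32, SE 0.074), Mrpl20 (-0.31, SE 0.053) and Mrpl45 (-0.18, SE 0.046) were lower.

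For MLL2dTAG the interaction with stage was called for 28 members, against 49% of all genes, 14 positive and 14 negative (26.4% and 22.6% of all genes). By library totals alone the split was 8 positive and 24 negative, and with upper-quartile scaling 11 and 18. Leaving out replicate 2 of WT ESC gave 23 positive and 10 negative, so the split moved either way with the setting. The median was 0.021, and 0.071 without that library. Mrps28 crossed over: it was at 27.6, 22.96 and 29.98 CPM in WT ESC and 21.9, 24.2 and 20.2 CPM in MLL2dTAG ESC, and at 10.8, 11.6 and 10.9 CPM in WT NPC and 12.8, 14.2 and 13.5 CPM in MLL2dTAG NPC. It was lower in ESC (-0.28, SE 0.083) and higher in NPC (0.29, SE 0.091), with an interaction of 0.57, SE 0.12, adjusted p 2.09e-04. The highest of its MLL2dTAG ESC libraries overlapped the lowest WT one. Mrpl16 had an interaction of 0.50, SE 0.10, adjusted p 9.85e-05. Mrpl19 (-0.48, SE 0.076) and Mrpl58 (-0.47, SE 0.10) had the most negative ones. Of the 77 members, 13 were called against WT at neither stage in dCD, against 30.3% of all genes, and 22 at neither stage in MLL2dTAG, against 22.6%.

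Other genes of mitochondrial translation were read from fixed lists for context. Of 5 further mitoribosomal proteins with other symbols, 4 fell from WT ESC to WT NPC, among them Ptcd3 at -0.98 (SE 0.040, adjusted p 3.45e-22), and 0 rose. Of 12 translation factors 5 fell and 6 rose in that comparison, with Gfm1, an elongation factor, at -1.15 (SE 0.039, adjusted p 1.35e-24). Of 17 mitochondrial tRNA synthetases 10 fell and 4 rose, of 21 assembly and rRNA factors 13 fell and 5 rose, and of 9 genes of mitochondrial DNA transcription 5 fell and 1 rose. The medians of these 5 lists were -0.30, 0.067, -0.40, -0.31 and -0.30, against -0.32 for the members and -0.037 for all genes tested. Of all genes tested, 40.4% were called lower and 39.1% higher in WT NPC against WT ESC.

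In dCD NPC 10 of 21 assembly and rRNA factors fell and 4 rose, and 6 of 17 tRNA synthetases fell and 1 rose. Of all genes tested, 26.8% were called lower and 26.7% higher in that comparison. Guf1, a translation factor, fell in both edited lines at both stages, by 0.58 and 0.64 in dCD ESC and NPC and by 0.42 and 0.76 in MLL2dTAG ESC and NPC on the log2 scale, against the same WT libraries at each stage. In NPC, MLL2dTAG was above dCD for 7 of 9 genes of mitochondrial DNA transcription and below for 0, against 31.6% and 24.3% of all genes. It was also above dCD for 11 of 17 tRNA synthetases and below for 0. For 21 assembly and rRNA factors the counts were 13 above and 3 below, and for 12 translation factors 4 and 3. Tfam, which packs mitochondrial DNA and starts its transcription, differed by 0.64 (SE 0.044, adjusted p 8.20e-15) there.

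The promoters of the members were read for motifs of factors known to act on nuclear genes for mitochondria, from 250 bases before to 50 after the start (RefSeq, GRCm38.p6), which matched 69 of 78 members. The letters searched, on both strands, were CCGGAAG for GABP of the ETS family, GCATGCGC for NRF1, AAGATGGCG for YY1 and CACGTG for an E-box. CCGGAAG stood in 26 of 69 members (37.7%), against 9.93% of all genes and 17.2% of tested protein-coding genes. GCATGCGC stood in 8 (11.6%, against 3.05% and 5.36%), AAGATGGCG in 8 (11.6%, against 1.64% and 3.01%) and CACGTG in 5 (7.25%, against 8.09% and 11%). A match is a description of the letters and does not show binding.

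The 100 bases before the start are shown for 4 members with the ETS letters and for Mrpl20, which holds the E-box letters there. Mrpl20 has no exact match to CCGGAAG, though its window reads tcggaag near its end. Capitals mark the match, and all sequences run 5′ to 3′ on the gene's strand. Windows that meet an annotated exon were not used.
Mrpl34: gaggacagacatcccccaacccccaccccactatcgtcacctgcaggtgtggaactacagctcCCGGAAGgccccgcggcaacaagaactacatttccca
Mrps22: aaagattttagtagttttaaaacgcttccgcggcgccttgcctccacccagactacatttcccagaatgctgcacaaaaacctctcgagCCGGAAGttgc
Mrpl52: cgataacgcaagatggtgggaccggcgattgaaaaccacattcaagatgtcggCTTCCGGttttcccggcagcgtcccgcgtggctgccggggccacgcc
Mrpl43: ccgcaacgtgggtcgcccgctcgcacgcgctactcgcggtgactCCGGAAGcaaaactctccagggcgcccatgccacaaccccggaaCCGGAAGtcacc
Mrpl20: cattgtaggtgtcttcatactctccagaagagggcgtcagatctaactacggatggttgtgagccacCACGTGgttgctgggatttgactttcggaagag
These windows lie at chr8:71464826-71464925 (forward strand), chr9:98601680-98601779 (reverse), chr14:54426809-54426908 (forward), chr19:45006443-45006542 (reverse) and chr4:155802778-155802877 (forward). In Mrpl52 the letters read CTTCCGG, the other strand's form, and Mrpl43 holds 2 matches.

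Members with and without CCGGAAG were both mostly lower in WT NPC than in WT ESC. With it 14 of 25 tested members fell and 4 rose (median -0.20), and without it 32 of 43 fell and 3 rose (median -0.32). Of all genes tested 40.4% fell and 39.1% rose. In MLL2dTAG NPC 12 of 25 with the letters rose and 0 fell, and 19 of 43 without them rose and 8 fell. Of all genes 33.3% rose and 28.4% fell in that comparison, where the split of members followed the scaling. In dCD NPC 8 with the letters rose and 4 fell, and 13 without them rose and 16 fell (26.7% and 26.8% of all genes). In dCD ESC 14 rose and 1 fell with the letters, and 24 and 5 without (25.7% and 22.6%). In MLL2dTAG ESC the counts were 12 and 1, and 14 and 3 (28.7% and 28.2%). The difference between the sets was not tested.

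The members are spread over 17 chromosomes, with 11 on chromosome 11 and 8 on chromosome 17. Many share a start region with a gene on the opposite strand. Within 1 kb, 23 of 78 members (29.5%) had a divergent start, against 10.3% of tested protein-coding genes. In WT NPC against WT ESC both genes of a pair were called the same way in 7 of 23 pairs and opposite ways in 6. Against WT the counts were 4 and 5 in dCD ESC, 6 and 4 in MLL2dTAG ESC, 5 and 5 in dCD NPC and 4 and 6 in MLL2dTAG NPC. The share over all divergent pairs of tested genes was not computed, so these counts only describe the 23 pairs.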

How the data were processed

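The authors deposited a table of gene read counts, whole numbers per gene symbol, from stranded poly(A) RNA libraries, per the labels' protocols. HTSeq did the counting, per the submitters' processing notes, and the aligner, genome build and counting options are not given in the sources used here. Of 36 samples 18 were used, 3 in each of 6 groups taken from the labels. The other 18 are not analysed here, and 6 columns of this table and 12 of another were not used.

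The counts were scaled by TMM (factors 0.967 to 1.05) and filtered with filterByExpr, and 1 quasi-likelihood model was fitted over all 18 libraries in edgeR 4.0.16 (R 4.3.3, 12 residual degrees of freedom). P-values were adjusted by Benjamini-Hochberg over 20511 genes, and a gene was called at an adjusted p under 0.05. CPM are TMM-scaled. DESeq2 1.42.0, other scalings, no filter, halved counts, length and GC offsets, a replicate block and leaving out each library were tried as alternatives. Lengths and positions come from GENCODE vM21 (GRCm38), and promoters from RefSeq (GRCm38.p6).

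Named members were, per comparison, the 4 highest and 4 lowest called members whose libraries did not overlap, 2 and 2 per interaction, the extremes of level per length, and 10 members fixed for their roles. Of each other list the rule takes the highest and lowest called gene per comparison, of which some are printed. The members and lists were chosen with earlier results of these data known.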

Additional observations from a re-analysis of the deposited data

Results flagged for a closer look

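The following values were marked because the change against WT differed between ESC and NPC by the interaction term of the edgeR model. For dCD this held for 38 members of 77, against 42.9% of all genes tested. Mrpl35 (-0.60 on the log2 scale) and Mrpl19 (-0.56) had a lower change in NPC than in ESC, and Mrpl57 (0.35) and Mrpl41 (0.29) a higher one. The last 2 calls were weak, lost without any 1 of 7 libraries for Mrpl57 and any 1 of 6 for Mrpl41. For MLL2dTAG the change differed between the stages for 28 members, against 49% of all genes tested. Mrps28 (0.57) and Mrpl16 (0.50) had a higher change in NPC than in ESC, and Mrpl19 (-0.48) and Mrpl58 (-0.47) a lower one. Both interactions use the same WT libraries, so the values for Mrpl19 are not independent of each other.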

How the results depend on the processing

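The number of called members stayed within 1.5 times the value reported in all 9 comparisons under every alternative run. The median of the MLL2dTAG interaction, 0.021, had no stable sign: it was -0.066 by library totals alone, -0.082 without the filter on low counts, -0.017 with upper-quartile scaling and -0.0031 with length and GC offsets. It was also negative without ESC WT replicate 1 (-0.015) or 3 (-0.034), NPC WT replicate 1 (-0.0061) or NPC MLL2dTAG replicate 2 (-0.0083), and the cause was not tested. Of 2322 values of single named members under the alternatives, 95 lost their call, 20 gained one and 2207 did neither. They cover 144 combinations of a named member and a comparison, not all members. Many of these were picked for large called changes, so the counts do not describe the members in general.

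Leaving out each library in turn gave 40 to 53 called members in dCD ESC and 30 to 40 in MLL2dTAG ESC against WT. In NPC it gave 37 to 39 for dCD and 38 to 45 for MLL2dTAG. It gave 56 to 59 for WT NPC against WT ESC, 25 to 28 and 28 to 37 for MLL2dTAG against dCD in ESC and NPC, and 33 to 41 and 23 to 33 for the dCD and MLL2dTAG interactions. DESeq2 called 50, 36, 44, 42 and 59 members in dCD ESC, MLL2dTAG ESC, dCD NPC, MLL2dTAG NPC and WT NPC against WT ESC.

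Replicate numbers did not pair the libraries: deviations from the group means of same-numbered libraries correlated at -0.028 to 0.032 across genes, and 6 of 18 libraries were nearest to their own number. With a replicate block the counts in the same 5 comparisons were 47, 35, 44, 43 and 58, and 29, 36, 38 and 27 in the other 4 (MLL2dTAG against dCD in ESC and NPC, and the dCD and MLL2dTAG interactions). Among members near the low end of counts, such as Mrps34 at 1.38 to 2.91 CPM, depth limits what could be called.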

Other observations

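The mRNA of Kmt2c, which encodes MLL3, was at 275 to 286 CPM in MLL2dTAG ESC and 299.6 to 335 CPM in MLL2dTAG NPC, against 161 to 219 CPM in the other 4 groups.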
